A study of Mus musculus with 9 samples.

Results

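The enzymes of glycolysis described here are Hk1, Hk2, Gpi1, Pfkl, Pfkp, Aldoa, Tpi1, Pgk1, Eno1 and Ldha. They were taken from the gene count table by their GRCm38 GENCODE symbol, which gave 11 identifiers for the 10 symbols, since Aldoa stands for 2 of them, out of 20189 identifiers in the table. All 11 were among the 20143 genes tested. RNA was sequenced from E14 cells, a wild-type mouse embryonic stem (ES) cell line grown with leukemia inhibitory factor (LIF). Cells were starved of threonine (Thr-starved) or cysteine (Cys-starved) or left unstarved. The labels' protocol gives 3 h of starvation in medium with dialyzed serum and LIF, and that medium with all amino acids for unstarved cells without a time, but it names other amino acids of the study and not these 2. Each group had 3 libraries, 9 in all, and the 3 unstarved libraries served as the control of both starvations. The comparisons ask how withdrawal of 1 amino acid changes the transcripts of the pathway and whether the starvations differ. The labels call the libraries replicates without saying whether they came from separate cultures, so the p-values measure only the spread between these libraries, which may be technical.

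Glycolysis splits glucose into pyruvate in the cytosol and yields ATP without oxygen. Hexokinases trap glucose in the cell, phosphofructokinase commits it to the pathway, the lower steps recover ATP and NADH, and lactate dehydrogenase returns NADH to NAD by making lactate. Pluripotent ES cells are known for a high glycolytic flux, and the transcription factors HIF1, which binds at ACGTG or GCGTG cores, and MYC, which binds E-boxes such as CACGTG, are known to drive these genes.

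Transcripts of the enzymes behaved differently, from Aldoa, which fell steeply in Thr-starved cells, to Hk2, which did not pass the test there. For that reason, and because they hold those cores, the upstream sequences of 5 of the enzymes are shown. Each is the 250 bases before a RefSeq transcription start on GRCm38.p6, written 5′ to 3′ on the gene's strand, with ACGTG and GCGTG on either strand in capitals, so that CACGT and CACGC are the reverse strand forms. The windows are chr6:82774455-82774704 on the minus strand for Hk2, chr13:6648772-6649021 on the minus strand for Pfkp, chr7:126799255-126799504 on the minus strand for Aldoa, chrX:106186850-106187099 on the plus strand for Pgk1 and chr7:46846832-46847081 on the plus strand for Ldha.
Hk2: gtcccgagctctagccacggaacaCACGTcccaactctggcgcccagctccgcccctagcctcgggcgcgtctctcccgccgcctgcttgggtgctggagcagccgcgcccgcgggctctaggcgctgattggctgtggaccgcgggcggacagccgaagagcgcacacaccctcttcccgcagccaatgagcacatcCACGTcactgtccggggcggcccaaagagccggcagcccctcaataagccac
Pfkp: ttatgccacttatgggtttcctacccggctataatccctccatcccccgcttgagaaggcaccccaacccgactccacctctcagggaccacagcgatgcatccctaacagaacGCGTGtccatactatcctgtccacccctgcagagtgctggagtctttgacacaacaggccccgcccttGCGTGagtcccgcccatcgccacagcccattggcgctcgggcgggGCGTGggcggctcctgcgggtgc
Aldoa: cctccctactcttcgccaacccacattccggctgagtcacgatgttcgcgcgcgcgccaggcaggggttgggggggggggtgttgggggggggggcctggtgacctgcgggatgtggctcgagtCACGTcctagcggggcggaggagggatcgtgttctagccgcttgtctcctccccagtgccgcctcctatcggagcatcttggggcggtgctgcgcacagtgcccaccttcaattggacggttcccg
Pgk1: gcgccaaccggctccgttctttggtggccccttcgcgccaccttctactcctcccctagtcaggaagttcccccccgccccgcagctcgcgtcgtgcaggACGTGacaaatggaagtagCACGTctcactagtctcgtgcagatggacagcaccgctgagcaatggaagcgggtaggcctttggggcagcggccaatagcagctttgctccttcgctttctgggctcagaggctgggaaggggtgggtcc
Ldha: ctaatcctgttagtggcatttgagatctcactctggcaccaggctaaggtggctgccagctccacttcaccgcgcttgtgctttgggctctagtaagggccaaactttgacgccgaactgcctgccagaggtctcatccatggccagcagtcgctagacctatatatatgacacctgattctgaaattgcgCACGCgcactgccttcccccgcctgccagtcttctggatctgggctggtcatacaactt

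All 10 symbols matched a window in the RefSeq table. The window nearest to the principal transcript start held ACGTG in 3 of 10 enzymes (Hk2 and Pgk1 with 2 matches each, Aldoa with 1), against 16.6% of the 32851 windows of the table. It held GCGTG in 4 of 10 (Pfkp with 3 matches, Pfkl, Eno1 and Ldha with 1 each), against 28.2%, and either core in 7 of 10, against 38.6%. The windows of Hk1, Gpi1 and Tpi1 held neither core. In Thr-starved cells these enzymes had log2 fold changes of -1.02, -0.33 and -1.10. Hk2, Pgk1 and Aldoa, whose windows held ACGTG, had 0.02, -0.52 and -1.13. Whether cores and changes go together was not tested. The E-box CACGTG, which contains ACGTG, was in none of these 10 windows and in 6.02% of all windows. The CCAAT/ATF response motif TGATGNAA was in none of them and in 3.45% of all windows. Both cores hold CG, and the GC content of the 10 windows ran from 49.6% to 69.6% with a median of 58.8%, above the median of 52.4% over all windows. A second RefSeq start of Ldha had 5 ACGTG matches on both strands together and 2 CACGTG sites in its window, and a CACGTG site counts as an ACGTG match on each strand. Another start of Hk1 had 3 GCGTG matches, other starts of Eno1 had 2 each, and another start of Aldoa had neither core. The counts therefore depend on the start chosen. A match is a run of letters, and binding was not measured.

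Total counts ran from 48763102 to 74962733 per library. Between libraries of 1 group, the chi-square per gene was 1.98 to 2.13, where pure counting of single reads gives about 1, and 67.8% of the counts from 1 to 20 were even numbers. Pure counting would give about 2 if both mates of a pair were counted, and how pairs were counted is not given in the sources used here. The labelled cell type was checked against its markers, and all 10 pluripotency markers listed were at 5 CPM (read counts scaled to a common library total with TMM factors) or more in every library, with a summed level of 4320 to 4350 CPM in unstarved, 4066 to 4091 CPM in Cys-starved and 4536 to 4630 CPM in Thr-starved libraries. Of 8 fibroblast feeder markers, 5 were tested and their sum stayed between 10.6 and 15.9 CPM, and endoderm and mesoderm markers summed to less than 10 CPM in every library. The sum of 5 neuroectoderm markers moved with the groups, from 164 to 170 CPM in unstarved and 202 to 207 CPM in Cys-starved to 87.8 to 91.6 CPM in Thr-starved libraries, and its part in the results was not tested. In Thr-starved cells Tubb3, the most abundant of the 5, was called lower (from a mean of 147 to 60.5 CPM), Sox1 (8.37 to 15.4 CPM) and Neurod1 (3.95 to 5.65 CPM) were called higher, and Pax6 and Otx1 did not pass the test. In bulk RNA, fewer cells of a type and less RNA per cell cannot be told apart.

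Most transcripts of the glycolytic enzymes fell in both starvations, and most were lower without threonine than without cysteine, with Hk2, Pfkp and Eno1 as exceptions in 1 comparison or more. In Thr-starved cells 9 of the 11 identifiers fell, 1 rose (the weakly detected second identifier of Aldoa) and 1 did not pass the test (Hk2), with edgeR's quasi-likelihood test at an adjusted p of 0.05 or less. The median log2 fold change over the 11 was -0.52, against -0.016 over all genes tested. In the main fit Aldoa, Tpi1 and Hk1 each lost over 50% of their level. With offsets for GC content and transcript length their log2 fold changes were -0.97, -1.04 and -0.83, so only Tpi1 kept a loss over 50%. Calls were common in this comparison, since 63.0% of all genes were called in either direction, 31.9% were called lower, 38.1% of those averaging 20 CPM or more over the libraries were called lower, and 33.9% had all Thr-starved libraries below all unstarved libraries. The 9 enzymes that fell also had non-overlapping libraries.

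In Cys-starved cells 9 of the 11 identifiers fell and 2 did not pass the test (Pfkp and the second Aldoa identifier), with a median log2 fold change of -0.23 against 0.0068 over all genes. The steepest decreases were those of Ldha, Aldoa and Pfkl. Of all genes, 36.3% were called in either direction, 18.8% were called lower, 37.4% of those averaging 20 CPM or more were called lower, and 23.5% had all Cys-starved libraries below all unstarved libraries. Apart from the second Aldoa identifier the enzymes are abundant transcripts, so the share among genes of at least 20 CPM is the nearer background. The enzymes were chosen with earlier results of these data known, so 9 of 11 cannot be read as an excess over it. Over all genes 48.2% of the calls were higher, against 36.8% with the authors' size factors in place of TMM, which also put Pfkp past the test as lower (log2 fold change -0.07, edgeR adjusted p = 0.030).

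Both starvations use the same unstarved libraries, so the direct comparison of the 2 starved groups is given separately. Thr-starved libraries were lower than Cys-starved libraries for 8 of 11 identifiers and higher for 2 (Hk2 and the second Aldoa identifier), and Eno1 did not pass the test. The median log2 fold change was -0.26, against -0.018 over all genes. In this comparison 62.0% of all genes were called in either direction, 31.6% were called lower, 33.7% of those averaging 20 CPM or more were called lower, and 33.6% had all Thr-starved libraries below all Cys-starved libraries.

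**Figure D1:**
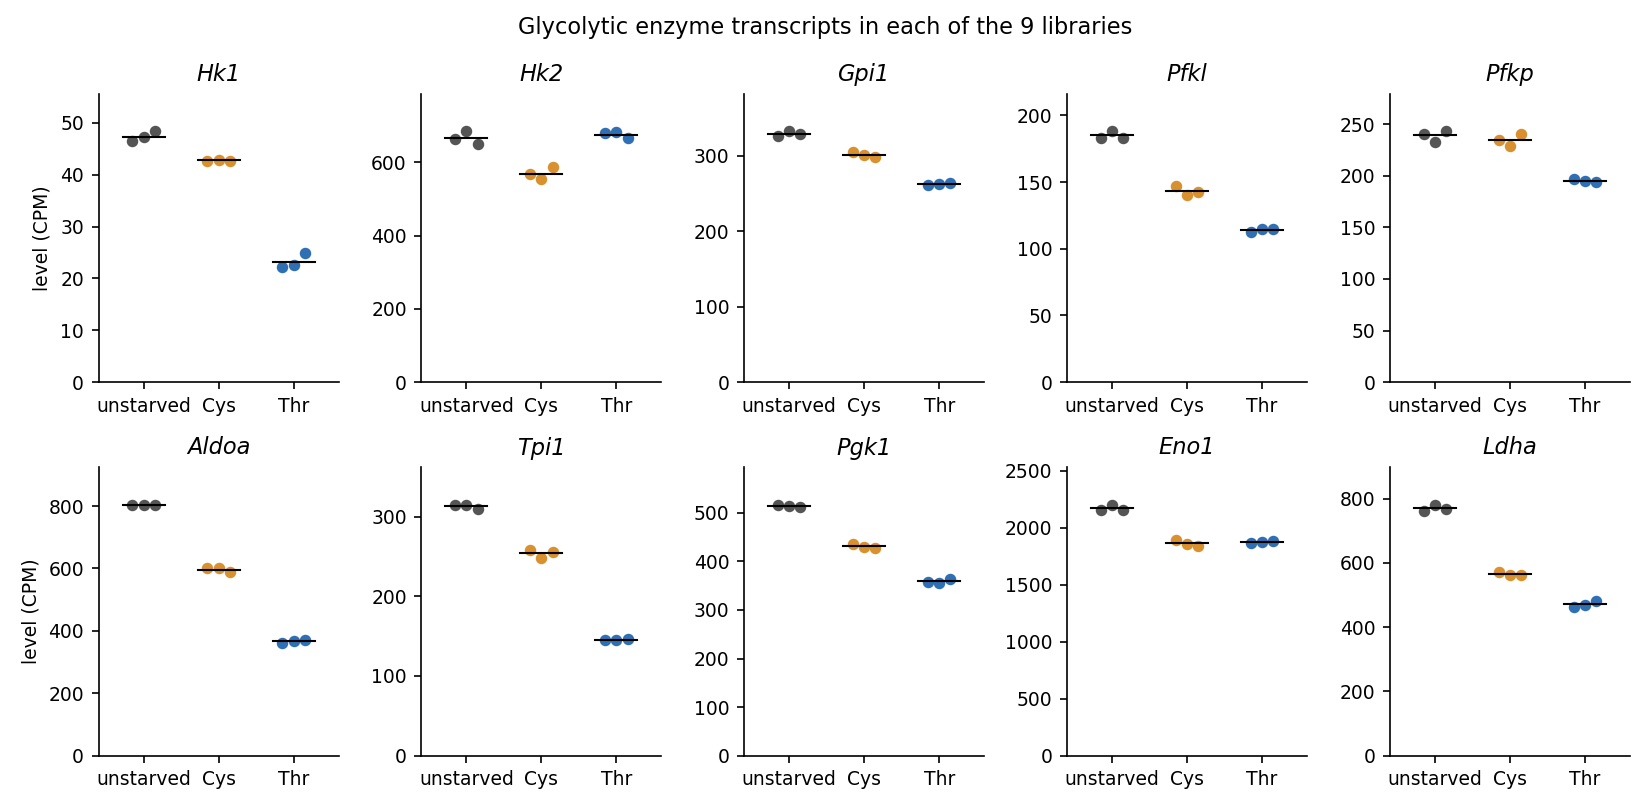
Level of each enzyme in CPM (vertical axis, from 0, with its own scale per enzyme) in the 3 unstarved (grey), 3 Cys-starved (orange) and 3 Thr-starved (blue) libraries, with a black line at each group's mean. The Thr-starved libraries are the lowest group for 8 of the 10 enzymes, Eno1 overlaps between the starvations, and Hk2 is lowest in the Cys-starved libraries.

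Hexokinase, the entry step, phosphorylates glucose. Hk1 (ENSMUSG00000037012, chr10:62268855-62379908, minus strand), the isozyme most tissues express, measured 46.5, 47.2 and 48.4 CPM in the unstarved libraries, 42.7, 42.9 and 42.7 CPM in the Cys-starved libraries and 22.1, 22.5 and 24.9 CPM in the Thr-starved libraries. The Thr-starved libraries lay far below both other groups, and the Cys-starved libraries lay just below the unstarved ones without overlap. Hk1 fell by 51.1% in Thr-starved cells (log2 fold change -1.02, SE 0.0427, edgeR quasi-likelihood adjusted p = 1.8e-15) and by 9.73% in Cys-starved cells (log2 fold change -0.15, SE 0.0401, adjusted p = 0.0055).

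Hk2 (ENSMUSG00000000628, chr6:82725025-82774454, minus strand), the inducible hexokinase of embryonic and tumour cells, measured 664, 685 and 651 CPM in the unstarved libraries, 567, 554 and 587 CPM in the Cys-starved libraries and 679.5, 682 and 666 CPM in the Thr-starved libraries. Its Thr-starved and unstarved libraries overlapped, whereas all Cys-starved libraries lay below both. The log2 fold change of Hk2 was 0.02 (SE 0.0227, edgeR adjusted p = 0.46) in Thr-starved cells and -0.23 (SE 0.0227, adjusted p = 4.9e-08) in Cys-starved cells, and Thr-starved cells were above Cys-starved cells by 0.25 (adjusted p = 2.3e-09). With offsets for GC content and transcript length, Hk2 passed the test in Thr-starved cells as higher, at 0.11 (adjusted p = 2.3e-05).

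Glucose phosphate isomerase turns glucose 6-phosphate into fructose 6-phosphate. Gpi1 (ENSMUSG00000036427, chr7:34201330-34230336, minus strand), its gene, measured 327, 333 and 329 CPM in the unstarved libraries, 304, 301 and 299 CPM in the Cys-starved libraries and 261, 262 and 264 CPM in the Thr-starved libraries. The 3 groups were ordered without overlap, with unstarved highest and Thr-starved lowest. Gpi1 fell by 20.4% in Thr-starved cells (log2 fold change -0.33, SE 0.0209, edgeR adjusted p = 3.3e-12) and by 8.49% in Cys-starved cells (log2 fold change -0.13, SE 0.0208, adjusted p = 3.5e-05).

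Phosphofructokinase adds the second phosphate and is the main point of control of the pathway. Pfkl (ENSMUSG00000020277, chr10:77986947-78010083, minus strand), the liver type subunit, measured 183, 188 and 183 CPM in the unstarved libraries, 147, 140.0 and 143 CPM in the Cys-starved libraries and 113, 115 and 115 CPM in the Thr-starved libraries. Again the groups were ordered without overlap, with Thr-starved lowest. Pfkl fell by 38.3% in Thr-starved cells (log2 fold change -0.70, SE 0.026, edgeR adjusted p = 2.6e-16) and by 22.5% in Cys-starved cells (log2 fold change -0.37, SE 0.0256, adjusted p = 1.7e-10). Pfkp (ENSMUSG00000021196, chr13:6579768-6648777, minus strand), the platelet type subunit, measured 241, 233 and 243 CPM in the unstarved libraries, 235, 229 and 241 CPM in the Cys-starved libraries and 197, 194 and 194 CPM in the Thr-starved libraries. Here only the Thr-starved libraries stood apart, and the Cys-starved libraries overlapped the unstarved ones. The log2 fold change of Pfkp was -0.29 (SE 0.0248, edgeR adjusted p = 4.6e-10) in Thr-starved cells and -0.03 (SE 0.0247, adjusted p = 0.43) in Cys-starved cells. Exons of Pfkp share 748 bases with exons of Pitrm1 on the opposite strand, those of Tpi1 and Aldoa share 34 with Spsb2 and 25 with Fam57b, and those of Gpi1 and Hk1 share 741 with Gm26762 and 157 with Hk1os, both also on the opposite strand and not analysed here. Whether counting used the strand is not given in the sources used here.

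Aldolase splits fructose 1,6-bisphosphate into 2 triose phosphates. Aldoa (ENSMUSG00000030695, chr7:126795234-126800751, minus strand), the muscle and ubiquitous type, measured 803, 803 and 804 CPM in the unstarved libraries, 602, 601 and 587 CPM in the Cys-starved libraries and 361, 367 and 370.0 CPM in the Thr-starved libraries. The spread within a group was small beside the gaps between groups, and no library overlapped another group. In the main fit Aldoa had the largest decrease of the 10 enzymes in Thr-starved cells, at 54.4% (log2 fold change -1.13, SE 0.0189, edgeR adjusted p = 2.0e-22). Its lead over Tpi1 depended on the processing. Over the 21 alternatives Aldoa ran from -1.14 to -0.97 and Tpi1 from -1.11 to -1.04. In Cys-starved cells Aldoa fell by 25.8% (log2 fold change -0.43, SE 0.0187, edgeR adjusted p = 5.2e-14).

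The second identifier with the symbol Aldoa (ENSMUSG00000114515, chr7:126800790-126809108), just upstream on the same strand, measured only 1.46, 1.37 and 1.17 CPM in the unstarved libraries, 1.44, 1.33 and 1.36 CPM in the Cys-starved libraries and 1.49, 2.14 and 2.13 CPM in the Thr-starved libraries. The unstarved and Cys-starved libraries were intermixed, and the lowest Thr-starved library was close to the highest unstarved one. Its log2 fold change was 0.53 (SE 0.169, edgeR adjusted p = 0.0091) in Thr-starved cells and 0.04 (SE 0.174, adjusted p = 0.88) in Cys-starved cells, and the direct difference was 0.49 (adjusted p = 0.015). The call in Thr-starved cells rests on 1 library, since without Thr-starved replicate 3 the value was 0.44 with an adjusted p of 0.056, while with GC and length offsets it was 0.87 (edgeR adjusted p = 8.8e-05). The direct difference did not pass the test without Thr-starved replicate 2 (0.41, edgeR adjusted p = 0.061) or 3 (0.40, adjusted p = 0.084), and was 0.73 (adjusted p = 0.00053) with GC and length offsets.

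Triose phosphate isomerase lets both trioses enter the lower part of the pathway. Tpi1 (ENSMUSG00000023456, chr6:124810586-124814296, minus strand) measured 315, 314 and 310.0 CPM in the unstarved libraries, 258, 248 and 256 CPM in the Cys-starved libraries and 145, 146 and 147 CPM in the Thr-starved libraries. The groups did not overlap, and the step from Cys-starved to Thr-starved was the larger one. Tpi1 fell by 53.5% in Thr-starved cells (log2 fold change -1.10, SE 0.0231, edgeR adjusted p = 1.0e-20) and by 18.8% in Cys-starved cells (log2 fold change -0.30, SE 0.0226, adjusted p = 5.8e-10).

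Phosphoglycerate kinase carries out the first step that makes ATP. Pgk1 (ENSMUSG00000062070, chrX:106187100-106203699, plus strand) measured 517, 513 and 511 CPM in the unstarved libraries, 435, 429 and 428 CPM in the Cys-starved libraries and 357, 356 and 364 CPM in the Thr-starved libraries. Its groups were ordered without overlap in near equal steps. Pgk1 fell by 30.1% in Thr-starved cells (log2 fold change -0.52, SE 0.0197, edgeR adjusted p = 3.8e-16) and by 16.1% in Cys-starved cells (log2 fold change -0.25, SE 0.0196, adjusted p = 8.7e-10). Its reads could be shared with the processed copies Pgk1-rs7 and Gm5537, which match over 68.8% and 68.6% of its transcript, and adding their counts gave -0.52 and -0.26.

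Enolase makes phosphoenolpyruvate. Eno1 (ENSMUSG00000063524, chr4:150236721-150248879, plus strand), the most abundant of the 10 transcripts, measured 2155, 2204 and 2158 CPM in the unstarved libraries, 1891, 1859 and 1840 CPM in the Cys-starved libraries and 1863, 1877 and 1884 CPM in the Thr-starved libraries. The starved groups overlapped each other, and both lay below the unstarved libraries. Eno1 fell by 13.7% in Thr-starved cells (log2 fold change -0.21, SE 0.0147, edgeR adjusted p = 1.5e-11) and by 14.2% in Cys-starved cells (log2 fold change -0.22, SE 0.0147, adjusted p = 8.0e-11), and the direct difference was 0.01 (adjusted p = 0.63). The decrease in Thr-starved cells did not pass the test once offsets for GC content and transcript length were used (log2 fold change -0.03, adjusted p = 0.070), and the starvations then differed by 0.19 (adjusted p = 1.77e-12). Eno1b has 99.5% identity with Eno1 over 85.6% of the transcript and a mean of 2011 CPM in unstarved cells, so the values of the pair are uncertain. Eno1 plus its copies gave -0.21 and -0.22.

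Lactate dehydrogenase A converts pyruvate to lactate at the end of the pathway. Ldha (ENSMUSG00000063229, chr7:46841475-46855627, plus strand) measured 762, 782 and 767 CPM in the unstarved libraries, 573, 563 and 563 CPM in the Cys-starved libraries and 464, 469 and 483 CPM in the Thr-starved libraries. No library overlapped another group, and the larger step in CPM was the one from unstarved to Cys-starved. Ldha had the largest decrease of the 10 enzymes in Cys-starved cells, though that of Aldoa (log2 fold change -0.43, SE 0.0187) lay within its SE. Ldha fell by 26.5% there (log2 fold change -0.44, SE 0.0197, edgeR adjusted p = 8.0e-14) and by 38.7% in Thr-starved cells (log2 fold change -0.71, SE 0.0198, adjusted p = 1.9e-18). The processed copies Gm5452 and Gm9247 match over 54.8% and 55.0% of its transcript.

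**Figure D2:**
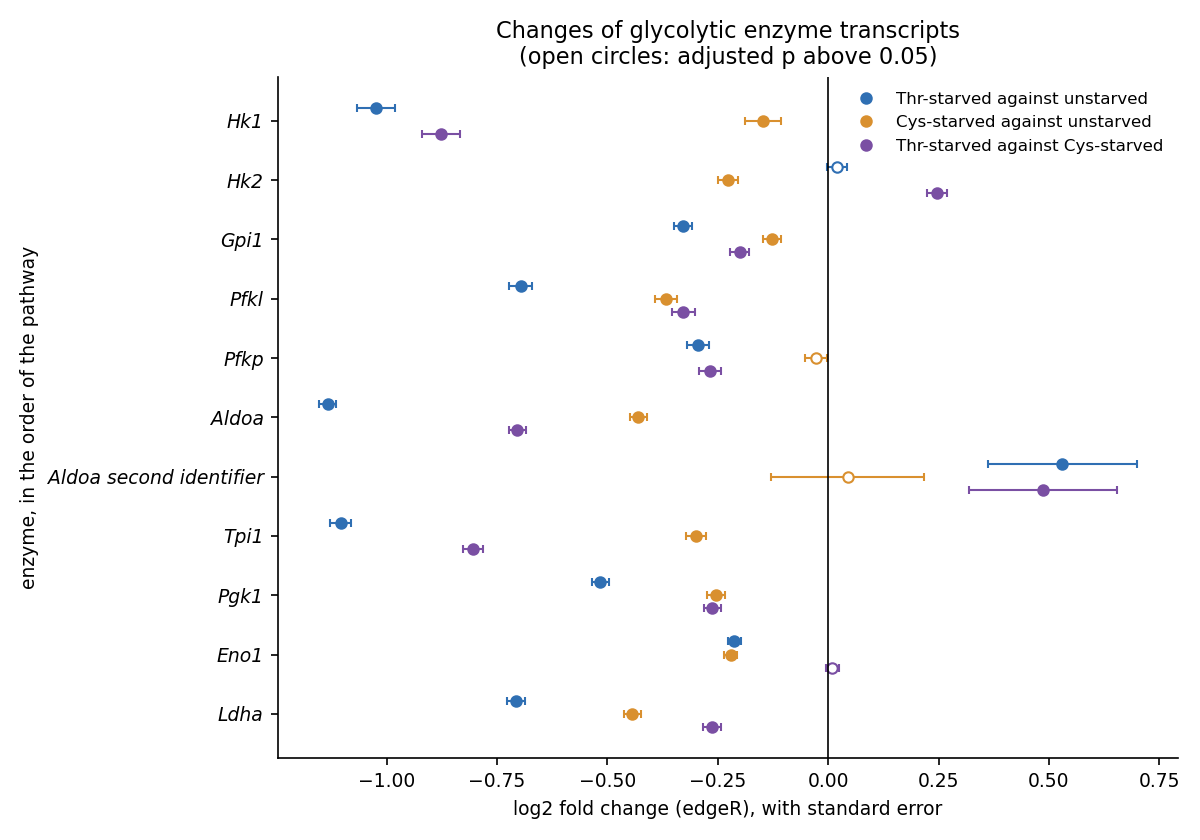
Log2 fold change (horizontal axis) with its standard error for the 11 identifiers in pathway order (vertical axis), for Thr-starved against unstarved (blue), Cys-starved against unstarved (orange) and Thr-starved against Cys-starved (purple) libraries, with open circles where the adjusted p exceeded 0.05. The blue points reach -1.13 at Aldoa and sit near 0 at Hk2 and at 0.53 at the second Aldoa identifier, while the orange points stay between -0.44 and 0.04.

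The direct comparison gave the widest gaps at Hk1, Tpi1 and Aldoa. Thr-starved cells were below Cys-starved cells by a log2 fold change of -0.88 for Hk1 (SE 0.0428, edgeR adjusted p = 3.8e-14), -0.80 for Tpi1 (SE 0.0231, adjusted p = 3.8e-18) and -0.70 for Aldoa (SE 0.0188, adjusted p = 1.1e-18). The difference was smaller for Pfkl (-0.33), Pfkp (-0.27), Pgk1 (-0.26), Ldha (-0.26) and Gpi1 (-0.20), of which Gpi1 had the highest adjusted p, 1.7e-08. With offsets for GC content and transcript length, Tpi1 had the widest gap at -0.75, ahead of Hk1 at -0.66 and Aldoa at -0.55. The differences of Pfkl and Gpi1 shrank to -0.10 and -0.12, Ldha was at -0.25, and Pgk1 and Pfkp widened to -0.31 and -0.29. Each of these still passed the test.

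Levels of different genes were compared as TPM (counts divided by the exon-union length of the gene, then scaled to the same sum in each library). In unstarved cells Eno1 was highest at 851 ± 13.1 TPM (SD, n = 3), followed by Aldoa at 582 ± 2.7 TPM, Ldha at 490 ± 8.0 TPM and Pgk1 at 482 ± 1.1 TPM, of which Ldha and Pgk1 did not differ beyond their spread. Tpi1 at 240 ± 1.6 TPM and Hk2 at 235 ± 6.4 TPM were likewise within their spread by this length. Gpi1 at 108 ± 1.4 TPM, Pfkl at 58.4 ± 1.0 TPM, Pfkp at 37.6 ± 0.8 TPM and Hk1 at 11.7 ± 0.3 TPM were the lowest. In Thr-starved cells Aldoa, at 272 ± 4.1 TPM, ranked below Pgk1 at 347 ± 4.0 TPM and Ldha at 309 ± 6.4 TPM, and Tpi1 at 115 ± 1.1 TPM fell well under Hk2 at 245 ± 3.8 TPM. Parts of this order turned on the length. Per kilobase of the principal transcript, unstarved cells held 436 ± 5.7 CPM of Ldha against 281 ± 1.6 CPM of Pgk1, and 195 ± 1.7 CPM of Tpi1 against 121 ± 3.2 CPM of Hk2, gaps beyond their spread, and Pfkp lay above Pfkl. In Thr-starved cells Aldoa, at 242 ± 3.0 CPM per kilobase, then lay above Pgk1 at 197 ± 2.5 CPM and below Ldha at 267 ± 5.5 CPM, while Tpi1 was below Hk2 by either length. The summed level of the 11 identifiers by exon-union length was 3099 ± 31.5 TPM in unstarved, 2700 ± 39.8 TPM in Cys-starved and 2211 ± 22.2 TPM in Thr-starved cells.

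Isozymes of 1 step could move apart. Per length, Ldha supplied 60.5% ± 0.30 (SD, n = 3) of the lactate dehydrogenase transcripts in unstarved, 52.9% ± 0.57 in Cys-starved and 40.2% ± 0.21 in Thr-starved cells. Ldhb, the heart type subunit, rose in Thr-starved cells (log2 fold change 0.48, SE 0.0231, edgeR adjusted p = 2.5e-14) and was at 0.00 (adjusted p = 0.99) in Cys-starved cells. The shares depend on the length used, since with the principal transcript Ldha supplied 70.4%, 63.7% and 51.2% in the same order of groups, and in both versions the decline was far larger than the spread.

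Hk2 outnumbered Hk1 per length by 20.1 ± 0.81 times in unstarved, 19.0 ± 0.59 times in Cys-starved and 41.8 ± 3.1 times in Thr-starved cells, or by 9.83, 9.30 and 20.4 times with the principal transcript length. Among phosphofructokinases, Pfkp relative to Pfkl was 0.645 ± 0.024 in unstarved, 0.816 ± 0.023 in Cys-starved and 0.851 ± 0.016 in Thr-starved cells by exon-union length, and 1.16, 1.47 and 1.54 by principal transcript length, so which subunit was more abundant turned on the length. Pfkm, the muscle type subunit, fell in Thr-starved cells (log2 fold change -1.13, SE 0.0585, edgeR adjusted p = 8.6e-14), and its share went from 11.4% in unstarved to 7.78% in Thr-starved cells by exon-union length and from 5.94% to 3.83% by principal transcript length. Aldoa supplied 99.4%, 99.3% and 98.8% of the aldolase transcripts in unstarved, Cys-starved and Thr-starved cells. Among enolases in unstarved cells, Eno1 supplied 27.1% and Eno1b 72.0% by exon-union length. By principal transcript length they supplied 48.5% and 50.8%, and the split within this near-identical pair is uncertain.

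**Figure D3:**
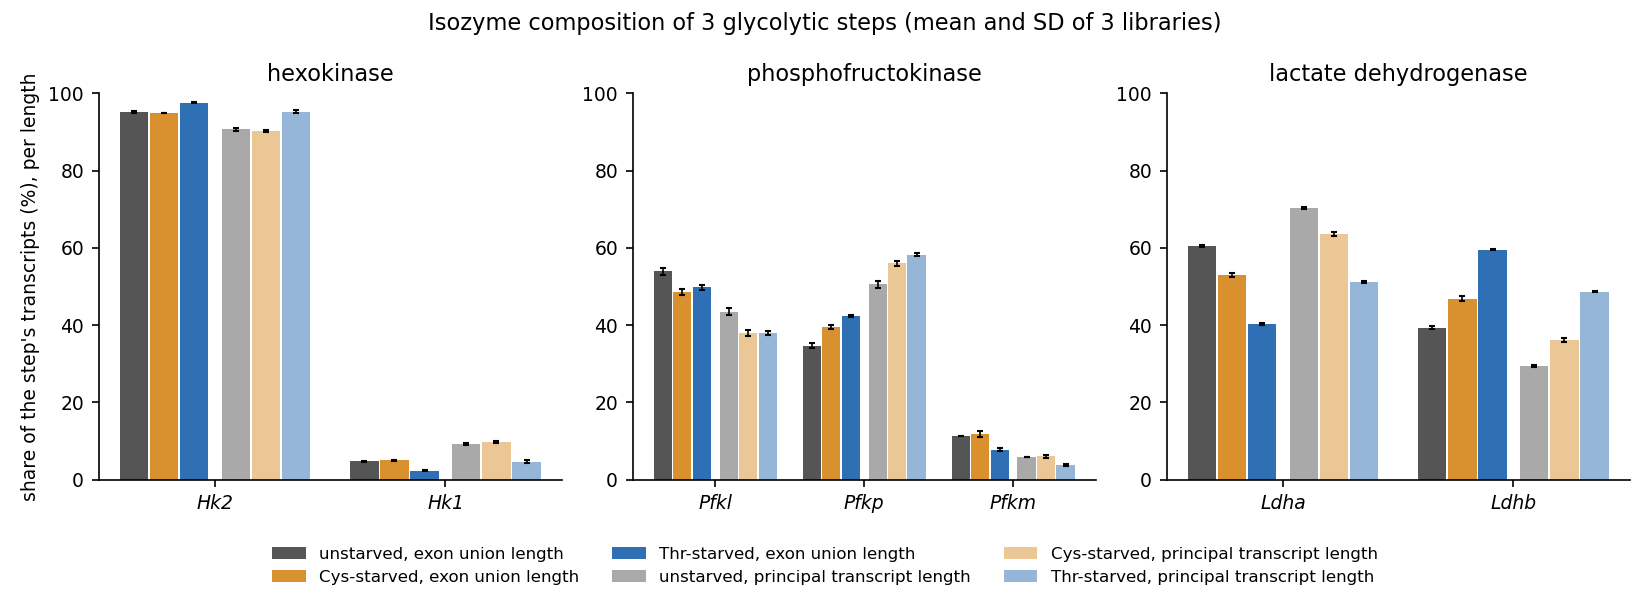
Share of each isozyme in the transcripts of its step (vertical axis, percent, per length) in unstarved (grey), Cys-starved (orange) and Thr-starved (blue) cells, as the mean with SD of 3 libraries. Full colours use the exon-union length and pale colours the principal transcript length, and by both lengths Ldha declines and Ldhb gains in the starved groups.

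The 3 glycolytic steps for which no enzyme was among the 10 fell as well. Gapdh, glyceraldehyde 3-phosphate dehydrogenase, had a log2 fold change of -0.39 in Thr-starved cells (edgeR adjusted p = 3.7e-15) and -0.13 in Cys-starved cells (adjusted p = 2.9e-06). Pgam1, phosphoglycerate mutase, had -0.60 (adjusted p = 1.2e-17) and -0.22 (adjusted p = 4.5e-09), and Pkm, pyruvate kinase, had -0.36 (adjusted p = 5.4e-16) and -0.22 (adjusted p = 6.3e-11). Of the 18 tested genes on the list of other isozymes and steps, 8 fell and 1 rose in Thr-starved cells, and 5 fell and 3 rose in Cys-starved cells, against 63.0% and 36.3% of all genes called in either direction and 38.1% and 37.4% of genes of at least 20 CPM called lower. Their median log2 fold changes were -0.25 and -0.12, against -0.016 and 0.0068 over all genes.

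Among the 11410 genes averaging 5 CPM or more, the mean profile of the 10 well detected enzymes was -0.25 in Cys-starved and -0.60 in Thr-starved cells on the log2 scale, relative to unstarved. The 3 genes outside the set with the nearest profile over the 9 libraries were Cct3, a subunit of the TRiC chaperonin, P4hb, an ER disulfide isomerase, and Pgam1, with root mean square differences of 0.0195, 0.0216 and 0.0250. Of the enzymes themselves Pgk1 was the nearest to the mean profile, at 0.0493, and Hk2 the farthest, at 0.36.

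Of the 10 tested genes of hexose and lactate transport, which include the regulator Txnip and the MCT chaperone Bsg, 6 fell and 2 rose in Thr-starved cells, and 5 fell and 3 rose in Cys-starved cells, against 31.9% and 18.8% of all genes lower. Among genes of at least 20 CPM, 38.1% and 37.4% were lower, and 63.0% and 36.3% of all genes were called in either direction. Slc2a1, the ubiquitous glucose transporter GLUT1, had a log2 fold change of -1.67 in Thr-starved cells (SE 0.0262, edgeR adjusted p = 8.0e-23) and -0.49 in Cys-starved cells (adjusted p = 1.2e-12). Slc2a3, the high-affinity transporter GLUT3, had -0.76 (adjusted p = 1.2e-19) and -0.90 (adjusted p = 1.6e-19). Slc16a3, the lactate exporter MCT4, had -2.59 (adjusted p = 1.3e-21) and -0.64 (adjusted p = 4.1e-11). Txnip, which restrains glucose uptake, rose by 2.11 (adjusted p = 1.4e-24) and 1.08 (adjusted p = 7.5e-19). The other gene that rose in Thr-starved cells was Slc2a4, the insulin-responsive transporter GLUT4, named after its values were seen, with 1.18 (edgeR adjusted p = 4.6e-07) and 0.75 (adjusted p = 0.00049) at 1.21 to 3.04 CPM over the libraries. None of the tested lactate carriers rose in either starvation (Slc16a1 and Slc16a3 fell in both, and Slc16a7 did not pass edgeR's test).

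Of the 5 enzymes that make or remove fructose 2,6-bisphosphate, the activator of phosphofructokinase, 2 rose and 1 fell in Thr-starved cells, and 2 rose in Cys-starved cells. Pfkfb2 rose by 1.59 (SE 0.0890, edgeR adjusted p = 3.3e-13) and Pfkfb3 by 0.77 (adjusted p = 1.6e-12) in Thr-starved cells, and Tigar, which removes the activator, fell by 0.24 (adjusted p = 7.8e-07) there. In Cys-starved cells Pfkfb2 rose by 0.46 (edgeR adjusted p = 0.00053) and Pfkfb4, at a mean of 2.76 CPM, by 0.32 (adjusted p = 0.048). With DESeq2 or the replicate block, only 1 of the 5 was called in Cys-starved cells. Of the 10 transcription factors listed for glycolytic genes, 5 rose and 4 fell in Thr-starved cells, and 1 rose and 6 fell in Cys-starved cells. Over all genes, 63.0% and 36.3% were called in either direction in the 2 starvations. Myc fell by 1.34 on the log2 scale in Thr-starved cells (edgeR adjusted p = 8.8e-19) and by 0.31 in Cys-starved cells (adjusted p = 1.5e-07), while Stat3, the effector of LIF, rose by 1.38 (adjusted p = 9.7e-21) in Thr-starved cells. Hif1a, from the HIF pathway list, rose by 0.31 in Thr-starved cells (edgeR adjusted p = 1.3e-10) and by 0.13 in Cys-starved cells (adjusted p = 0.00013).

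**Figure D4:**
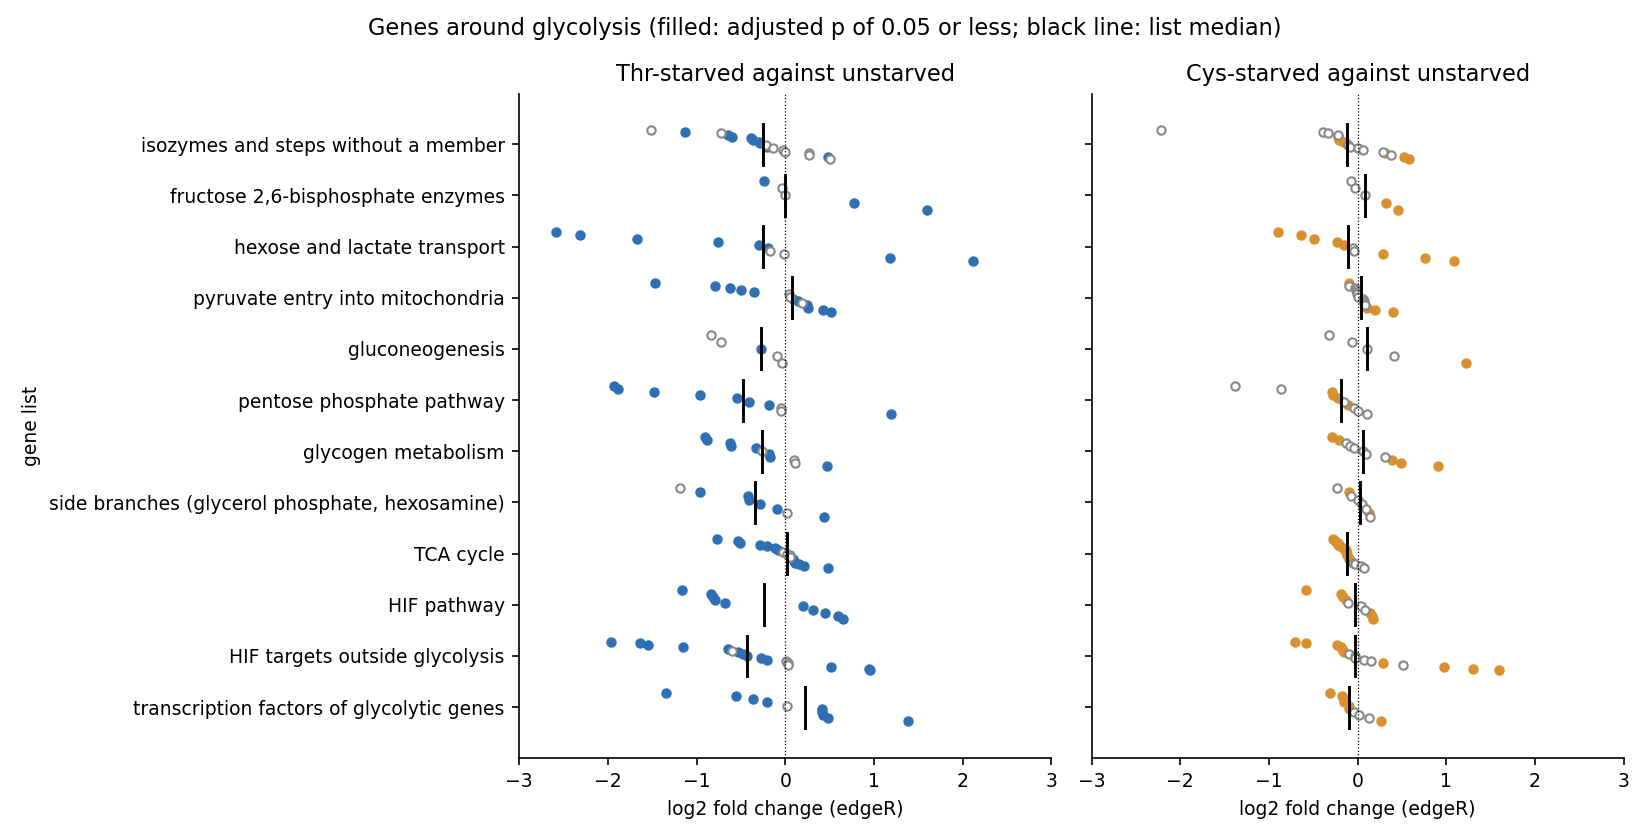
Log2 fold change (horizontal axis) of every tested gene on 12 lists around glycolysis (vertical axis) in Thr-starved (left) and Cys-starved (right) against unstarved libraries, with filled points at an adjusted p of 0.05 or less and a black line at each list's median. The spread is wider on the left, where Slc16a3 lies at -2.59 and Txnip at 2.11.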

How the data were processed

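Poly(A) RNA libraries of 3 unstarved, 3 Cys-starved and 3 Thr-starved samples were prepared with a strand-marking kit and sequenced from both ends. The authors mapped reads to GRCm38 with STAR 2.7.4a and made gene counts with HTSeq, deposited without normalization; strand and multimapping settings are not given in the sources used here. The authors also deposited normalized signal values, the same counts divided by a DESeq2 size factor per library, used here only for an alternative. Of 20189 identifiers, 20171 had a GENCODE M21 name. The 9 libraries held 531843877 counts.

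Counts were tested in R 4.3.3 with edgeR 4.0.16 (TMM, quasi-likelihood F test, two-sided, genes with at least 1 count over the 9 libraries, 3 groups in one fit, no covariate), with Benjamini-Hochberg adjustment over the 20143 genes of each comparison and calls at 0.05 or less. The script was tested on simulated data first. Alternatives were DESeq2 1.42.0, RLE normalization, the deposited size factors, TMM without the 10 genes with the most counts, filterByExpr, 10 counts in every library, thinning to the smallest library, only the 2 groups compared, a replicate block, an adjusted p of 0.01, loess offsets (span 0.3) for GC content and length, adding counts of near-identical copies (BLAST 2.17.0, 95% identity over 30% of the transcript) and leaving out each library. The principal transcript length was added after seeing the data.

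The enzymes and the 12 gene lists (142 genes, 135 tested) were chosen with earlier results of these data known. Named were the 10 enzymes, Gapdh, Pgam1, Pkm, the 3 genes with the nearest profile and, per list and comparison, up to 4 called genes averaging 5 CPM or more with the largest change. Some genes were also named outside this rule, among them Slc2a4, Slc16a1, Slc16a7, Pfkfb4 and Hif1a. Pathway lists, overlapping genes and markers were described by counts, with no set test. The columns of the unstarved libraries carry a tag that no label explains and were matched by genotype and replicate number. No column was left unmapped and no sample was left out.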

Additional observations from a re-analysis of the deposited data

How the results depend on the processing

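The counts of enzymes called (10 of 11 in Thr-starved cells, 9 of 11 in Cys-starved cells and 10 of 11 between the starvations) stayed within 1.5 times under all 21 alternatives, which gave 63 values. With the replicate block they were 10, 9 and 10, and over all genes the block gave 12488, 7063 and 12334 calls. Same-numbered libraries deviated from their group means with correlations from -0.24 to 0.11. Counting noise can also give values this low, so they show no pairing but cannot exclude one. The calls without the block were 12689, 7313 and 12488. Of the log2 fold changes of single enzymes under alternatives, 680 kept direction and side of the threshold, 5 were weaker, 5 stronger and 3 turned in sign. The sign turned for Eno1 between the starvations, at -0.000708 with at least 10 counts in every library and from -0.000281 to 0.0203 over the fits without 1 library each (lowest without Cys-starved replicate 3), and for the second Aldoa identifier in Cys-starved cells, from -0.0382 without unstarved replicate 3 to 0.109 over those fits. That identifier was not past the test between the starvations at an adjusted p of 0.01 or without Thr-starved replicate 2 or 3 (0.41 and 0.40). GC and length offsets moved Hk2 and Eno1 across the threshold as given with each, and Pfkp in Cys-starved cells passed it with them (-0.07, adjusted p = 0.034) and with the authors' size factors (-0.07, adjusted p = 0.030), with which Eno1 differed between the starvations by 0.05 (adjusted p = 0.0051). In Cys-starved cells, 1 of the 5 fructose 2,6-bisphosphate enzymes was called with DESeq2 or the block, against 2. The principal transcript length moved 41 of 48 isozyme shares and 31 of 33 levels per length by 1 SD or more. The cause was not tested in any of these. Groups of 3 limit the spread estimate, and of the 11 identifiers only the second one of Aldoa was measured at low counts.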

Other observations

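The pentose phosphate pathway, which branches from glucose 6-phosphate and makes NADPH and ribose, had 7 of 10 genes lower and 1 higher in Thr-starved cells, and 4 lower in Cys-starved cells. Over all genes 31.9% and 18.8% were lower, and 38.1% and 37.4% among genes of at least 20 CPM, in Thr-starved and Cys-starved cells. Pgd, the second NADPH-making enzyme, had a log2 fold change of -1.48 in Thr-starved cells (edgeR adjusted p = 1.4e-21) and -0.29 in Cys-starved cells (adjusted p = 1.0e-08). H6pd had -1.93 and -0.23, and Tkt, transketolase, had -0.96 and -0.28. Rpe rose by 1.20 in Thr-starved cells (edgeR adjusted p = 6.0e-17). The TCA cycle list of 17 genes held 13 that fell and 0 that rose in Cys-starved cells by edgeR, with Mdh2 at -0.26 and Sucla2 at -0.27, against 7 that fell and 6 that rose in Thr-starved cells, with Ogdh at -0.78 and Dlst at 0.48. Of 14 genes of pyruvate entry into mitochondria, 6 rose and 5 fell in Thr-starved cells and 3 rose and 1 fell in Cys-starved cells, with Pdk1, a kinase that inhibits pyruvate dehydrogenase, at -0.50 (edgeR adjusted p = 6.3e-14) and, not past the test, -0.0051. Of 8 genes of the glycerol phosphate and hexosamine branches, 5 fell and 1 rose in Thr-starved cells and 1 fell and 1 rose in Cys-starved cells. Beside the lists of this paragraph, 63.0% of all genes in Thr-starved and 36.3% in Cys-starved cells were called in either direction.

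Some genes near the pathway went in opposite directions in the 2 starvations. Gys1, glycogen synthase, fell by 0.63 on the log2 scale in Thr-starved cells and rose by 0.90 in Cys-starved cells, with a direct difference of -1.53 (edgeR adjusted p = 1.8e-19). Pygb, a glycogen phosphorylase, had -0.61 and 0.49, and Pck2, the mitochondrial phosphoenolpyruvate carboxykinase, had -0.27 and 1.23, with direct differences of -1.10 (adjusted p = 9.9e-15) and -1.49 (adjusted p = 5.6e-22). Of the 11 tested genes of glycogen metabolism, 7 fell and 1 rose in Thr-starved cells and 2 fell and 3 rose in Cys-starved cells, and of the 5 of gluconeogenesis 1 fell in the former and 1 rose in the latter, Pck2 in both. Over all genes, 63.0% were called in either direction in Thr-starved and 36.3% in Cys-starved cells. The HIF pathway list of 10 genes held 5 that rose and 5 that fell in Thr-starved cells and 3 that rose and 4 that fell in Cys-starved cells. Of 17 HIF targets outside glycolysis, 10 fell and 3 rose in Thr-starved cells, and 7 fell and 4 rose in Cys-starved cells, against 38.1% and 37.4% of all genes of at least 20 CPM that fell. Mxi1, an antagonist of MYC, had the largest change of the list in Thr-starved cells among genes of at least 5 CPM, at -1.55 (edgeR adjusted p = 5.4e-15), and -0.03 (adjusted p = 0.75) in Cys-starved cells. Stc2, a secreted glycoprotein, rose by 0.95 in Thr-starved and 1.59 in Cys-starved cells, Vegfa had 0.51 and 0.97, and Bnip3, a mitophagy receptor, had -1.15 and -0.70.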
